A study of Mus musculus with 4 samples.

Results

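Deaminases that edit RNA remove the amino group from adenosine, which leaves inosine, or from cytidine, which leaves uridine. The genes described here were 8 mouse genes of the families of such enzymes, chosen by name: Adar, Adarb1, Adat1, Adat2, Adat3, Apobec1, Apobec2 and Apobec3. Of these 8, 6 were among the 10716 genes of the count table. The other two, Adarb1 and Apobec2, were not in it and are not analysed here. Every gene of the table exceeded 1 CPM (a gene's count relative to the total of its library) in at least 2 libraries, so the table holds no gene under that level.

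RNA came from C57BL/6 fetal liver at embryonic day 14.5, from erythroid cells that were flow-sorted for YFP, which the R26eYFP reporter makes. The 2 knockout (KO) libraries, replicates 1 and 2, carry the genotype label Epor-Adar / + and are described as an Epor-ADAR knock out, in which Cre recombinase from the erythropoietin receptor gene acts on Adar in the erythroid lineage. The 2 wild-type (WT) libraries, replicates 3 and 8, are labelled controls. The labels do not say whether 1 or both Adar alleles were deleted, nor which exons, nor whether each library came from a separate embryo, so the tests measure the spread between 4 libraries, which may be technical. Total counts ran from 28356401 to 44016809 per library.

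ADAR1, the protein of Adar, binds double-stranded RNA and turns adenosine into inosine, which keeps cellular RNA from being read as foreign by the sensor MDA5. Adar transcripts start at several promoters. One of them is induced by interferon and gives the long, partly cytoplasmic form p150, while others are constitutive and give the nuclear form p110. Adarb1 encodes the related enzyme ADAR2. ADAT2 and ADAT3 form a heterodimer that makes inosine at the wobble position of tRNA anticodons, with ADAT2 as the catalytic subunit, and ADAT1 acts next to the anticodon of alanine tRNA. APOBEC1 edits cytidine in apolipoprotein B mRNA, and mouse APOBEC3 deaminates cytidine in retroviral DNA.

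The sorted cells carried erythroid transcripts at high levels in every library. The 11 erythroid markers in the table, of 13 listed, summed to 71956 and 73044 CPM in the KO libraries and to 102959 and 68327 CPM in the WT libraries. Markers of B cells (8 listed) and of mast cells and basophils (5 listed) were not in the table. The 7 neutrophil granule markers in the table, of 9 listed, summed to 305 CPM in KO replicate 1, 37.3 CPM in KO replicate 2, and 41.1 and 45.3 CPM in the WT libraries. The 11 macrophage markers in the table, of 16 listed, summed to 51.8 and 29.1 CPM in the KO libraries against 75.7 and 41.7 CPM in the WT libraries. Lysozyme (Lyz2) alone gave 43.1 CPM of that sum in KO replicate 1, and 7 of the 11 macrophage markers had both KO libraries below both WT libraries, as did 26.7% of all genes. Of those 7, C1qa, Vcam1 and Cd5l were under 1 CPM in both KO libraries and so are in the table only through the WT libraries. The 10 hepatoblast markers in the table, of 12 listed, summed to 60.5 and 72.6 CPM in the KO libraries and to 132 and 52.5 CPM in the WT libraries. The 7 megakaryocyte markers in the table, of 8 listed, summed to 157 and 106 CPM in the KO libraries against 62.0 and 89.7 CPM in the WT libraries, and the 4 endothelial markers, of 5 listed, to 24.8 and 26.6 CPM against 11.8 and 9.99 CPM. Both KO libraries lay above both WT libraries for 4 of the 7 megakaryocyte and 3 of the 4 endothelial markers, as for 27.4% of all genes. Of 8 lymphoid markers of T and NK cells 1 was in the table, with 5.19 and 7.33 CPM in the KO libraries and 9.72 and 6.61 CPM in the WT libraries. No marker of any of these lists passed in edgeR's quasi-likelihood test, where 0.103% of all genes were called. Counts of 4 Y-linked genes summed to 11705 in KO replicate 1 and to 3 in KO replicate 2. In WT replicates 3 and 8 they summed to 5599 and 10695. KO replicate 1 and WT replicate 3 are labelled female, and KO replicate 2 and WT replicate 8 male. The counts thus went against the labelled sex in 3 of the 4 libraries, so sex was not used in any fit. Its part in the differences was not tested. The fold changes of the deaminase genes and the counts of called genes were also computed without each library, and the other results were not.

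Promoter sequences of Adar, Apobec1 and Apobec3 are shown first, since Adar and Apobec3 are known interferon targets and Apobec1 had the largest difference. They come from RefSeq (GRCm38.p6 table, 250 bases before to 50 bases after a start site), which held 10 entries for 7 of the 8 genes, and each was found once, letter for letter, on its chromosome in NCBIM37, whose coordinates are used here. Capitals mark matches to the interferon-stimulated response element, searched as GAAANNGAA and as a longer form with a further A at its 3′ end, and to the C/EBP-ATF composite element bound by ATF4 and its partners, searched as TGATGNAA, on both strands. The sequences are given on the strand of the gene.
Adar, start 89519160, chr3:89518910-89519209, plus strand: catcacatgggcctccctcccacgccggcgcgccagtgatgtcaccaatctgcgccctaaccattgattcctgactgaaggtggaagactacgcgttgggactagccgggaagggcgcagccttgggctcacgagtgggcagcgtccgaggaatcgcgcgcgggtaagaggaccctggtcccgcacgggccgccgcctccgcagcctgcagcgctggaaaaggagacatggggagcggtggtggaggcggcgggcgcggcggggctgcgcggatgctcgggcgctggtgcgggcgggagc
Adar, start 89534640, chr3:89534390-89534689, plus strand: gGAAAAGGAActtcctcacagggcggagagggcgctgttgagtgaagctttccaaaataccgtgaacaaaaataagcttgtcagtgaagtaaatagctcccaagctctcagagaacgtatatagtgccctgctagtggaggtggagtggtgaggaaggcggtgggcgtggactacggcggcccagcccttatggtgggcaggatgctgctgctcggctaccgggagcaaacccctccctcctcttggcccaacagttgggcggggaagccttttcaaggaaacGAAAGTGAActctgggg
Apobec1, start 122552462, chr6:122552413-122552712, minus strand: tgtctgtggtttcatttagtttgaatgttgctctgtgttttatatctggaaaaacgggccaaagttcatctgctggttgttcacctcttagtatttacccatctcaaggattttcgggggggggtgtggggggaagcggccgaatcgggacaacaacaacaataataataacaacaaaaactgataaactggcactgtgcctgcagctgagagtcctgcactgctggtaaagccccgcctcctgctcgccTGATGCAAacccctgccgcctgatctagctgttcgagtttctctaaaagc
Apobec3, start 79722838, chr15:79722588-79722887, plus strand: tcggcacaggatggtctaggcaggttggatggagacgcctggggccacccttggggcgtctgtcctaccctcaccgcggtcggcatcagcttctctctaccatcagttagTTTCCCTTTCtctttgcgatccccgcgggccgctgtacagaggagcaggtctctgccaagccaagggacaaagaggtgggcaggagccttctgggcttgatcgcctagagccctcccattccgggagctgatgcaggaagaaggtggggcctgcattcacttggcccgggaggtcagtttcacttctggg

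Adar had 3 start sites in the table. The downstream one, at 89534640, was the one with matches to GAAANNGAA, at bases -249 to -241 and at bases 34 to 42, counting the start site as base 1. Neither upstream window, at 89518944 and 89519160, held a match to either form. In Apobec3 the longer form was matched on the minus strand at bases -140 to -131 of the upstream start, and the other Apobec3 window, at 79725453, held none. In Apobec1 TGATGNAA was matched at bases 1 to 8, at the start site itself. Of 32851 promoter windows, 8.56% held GAAANNGAA, 3.44% its longer form and 3.97% TGATGNAA. The GATA motif AGATAA was searched as well, and 11.2% of the windows held it. Among the deaminase genes it was matched only in Adat2, at bases -235 to -230. GAAANNGAA was found for 12 of the 18 interferon-stimulated comparator genes that had an entry, and for 9.76% of the 27025 genes with an entry. A match is a description of letters and shows no binding, and the deposited counts are per gene, so transcripts from the different Adar starts cannot be told apart.

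Adar (ENSMUSG00000027951, plus strand of chromosome 3, 89518944 to 89557368) was the targeted gene, and its gene-level count was higher in the KO libraries. KO replicate 1 had 67.1 CPM and KO replicate 2 had 102 CPM, while WT replicate 3 had 50.9 CPM and WT replicate 8 had 46.9 CPM. The groups did not overlap, the KO libraries lay far apart and the WT libraries close together, and KO replicate 2 was the highest. The mean was 84.4 ± 24.4 CPM in KO and 48.9 ± 2.82 CPM in WT (SD, n = 2 each). The log2 fold change was 0.79 (SE 0.25, 95% interval 0.18 to 1.40, or 1.13-fold to 2.63-fold), and edgeR's quasi-likelihood test did not call it (adjusted p = 0.377). Without KO replicate 1 the log2 fold change was 1.06, and without KO replicate 2 it was 0.45. A count over all exons includes those that a conditional allele retains, so it does not measure the deletion.

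Adar is itself an interferon-stimulated gene, and it was set beside a list of 25 others, of which 21 were in the table. Of these 21, 7 (Ddx58, Dhx58, Oas1a, Oas2, Oas3, Ifit1 and Xaf1) were under 1 CPM in both WT libraries, so they entered the table only through the KO libraries and their groups had to lie apart. The other 14 also had higher values in both KO libraries than in both WT libraries, where 27.4% of all genes did. Of the 21, 3 rose, among them Oas3 from those 7, in edgeR's quasi-likelihood test, where 0.103% of all genes were called: Oas3 (which makes the activator of RNase L, log2 fold change 8.63, SE 0.41, adjusted p = 0.00663), Rsad2 (the antiviral protein viperin, 4.88, SE 0.25, adjusted p = 0.00663) and Isg15 (a ubiquitin-like modifier, 6.90, SE 0.51, adjusted p = 0.0270). At an unadjusted p below 0.05 there were 20 of the 21, those 7 among them, against 9.82% of all genes as higher. Every count over the 21, here and below, is taken with those 7 in the list, whose higher level in KO the filter had fixed. The 3 became 17 without KO replicate 1, 19 without KO replicate 2, 8 without WT replicate 3 and 5 without WT replicate 8, in fits that called 1.29%, 17.3%, 0.373% and 0.233% of all genes as higher. The median log2 fold change of the 21 was 3.83, against -0.0008 over all genes, with those 7 included. The log2 fold change of Adar, 0.79, was above that of the dNTP hydrolase gene Samhd1 (0.18), named after its value was seen, and below those of the other 20.

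The order of the 2 KO libraries in Adar was unlike that of most comparators, and Adat1 and Adat3 shared it. KO replicate 1 minus KO replicate 2 was -0.60 for Adar, -0.77 for Adat1 and -0.35 for Adat3 in log2 CPM. On the log2 CPM scale, Adar lay 0.46 above the WT mean in KO replicate 1 and 1.06 above it in KO replicate 2. Of the 21 comparators, 18 were higher in KO replicate 1, as were 49.6% of all genes. The 3 others, named after their values were seen, were Irf9, an interferon regulatory factor gene, Trim25, a ubiquitin ligase of the RIG-I pathway, and Eif2ak2, which encodes the double-stranded RNA-activated kinase PKR. Eif2ak2 had 43.8 and 77.4 CPM in KO replicates 1 and 2, and 33.4 and 31.4 CPM in WT replicates 3 and 8. The log2 fold change reached 0.90 (SE 0.30, edgeR adjusted p = 0.390).

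**Figure D1:**
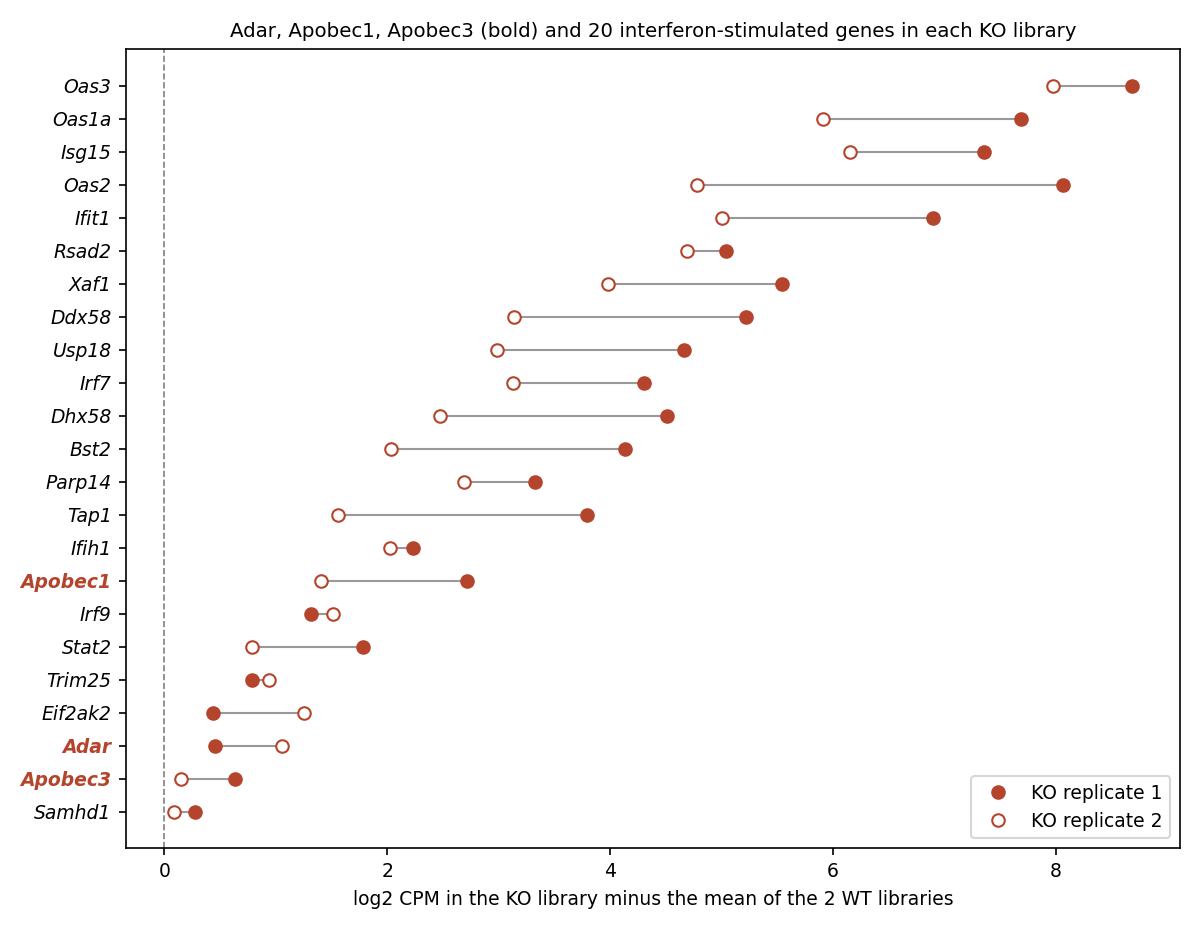
Each row is a gene, and the horizontal axis is log2 CPM in a KO library minus the mean of the 2 WT libraries, with KO replicate 1 as a filled and KO replicate 2 as an open circle. Of the comparators 20 are drawn, and the filled circle is to the right for 17 of them and for Apobec1 and Apobec3, and to the left for Adar, Eif2ak2, Irf9 and Trim25.

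Of the 9640 other genes whose mean log2 CPM was 1 or more, Eif2ak2 was the second most like Adar by the Euclidean distance between log2 CPM profiles centred over the 4 libraries (distance 0.18). The others among the closest 5 were AA388235 (0.11), Ndrg4 (0.20), LOC100503956 (0.21) and Fads3, a fatty acid desaturase family gene (0.25). Each of these 5 had its highest value in KO replicate 2, as Adar did, which follows from choosing them by likeness to Adar. AA388235 had 2.32 and 3.34 CPM in KO replicates 1 and 2 against 1.74 and 1.46 CPM in WT replicates 3 and 8. Among the deaminase genes the nearest to Adar was Apobec3, at a distance of 0.93, which ranked 3482 among the 9640. The profile has 4 points, so the likeness is a description. Downstream of Adar, Chrnb2, a nicotinic receptor subunit gene on the opposite strand, has its 3′ end 2 bases beyond the annotated end of Adar, and whether the counting used strand is not stated. Chrnb2 had 1.76 and 1.24 CPM in the KO libraries and 0.725 and 0.739 CPM in the WT libraries, so it is in the table only through the KO libraries.

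Apobec1 (ENSMUSG00000040613, chromosome 6, 122527810 to 122552462, minus strand) had the largest difference of the 6 deaminase genes. Its level was 19.1 CPM in KO replicate 1 and 7.65 CPM in KO replicate 2, against 1.99 CPM in WT replicate 3 and 4.06 CPM in WT replicate 8. Both KO libraries lay above both WT libraries. These values rest on 584 and 295 reads in the KO libraries and on 55 and 192 reads in the WT libraries. The 55 reads of WT replicate 3 give an exact Poisson 95% interval of 1.50 to 2.60 CPM, for counting error only. The mean was 13.3 ± 8.06 CPM in KO and 3.02 ± 1.46 CPM in WT (SD, n = 2 each). This is a log2 fold change of 2.13 (SE 0.56, 95% interval 0.75 to 3.50).

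Apobec1 was not called by edgeR's quasi-likelihood test (adjusted p = 0.325). It passed as higher in DESeq2 (log2 fold change 2.13, adjusted p = 0.00533), which called 3.49% of all genes (3.29% as higher), and in edgeR's likelihood ratio test (adjusted p = 0.0194), which called 3.26% (3.09% as higher). In limma-voom, which called 0.0747% of all genes, the adjusted p was 0.420. Without KO replicate 1 the log2 fold change was 1.32 (edgeR adjusted p = 0.344). Without KO replicate 2 it was 2.62 (edgeR adjusted p = 0.00506), in a fit that called 32.6% of all genes. The library with the most Apobec1, KO replicate 1, was also the one with 305 CPM of neutrophil granule markers, although KO replicate 2, with 7.65 CPM of Apobec1, had fewer of those markers (37.3 CPM) than either WT library. The summed macrophage markers were highest in WT replicate 3, which had the least Apobec1. The summed megakaryocyte markers had the same order of the 4 libraries as Apobec1, and the summed endothelial markers were higher in both KO libraries. The part of such cells in the difference was not tested, and in bulk RNA fewer cells of a type and less RNA per cell cannot be told apart.

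Apobec3 (ENSMUSG00000009585, chromosome 15, 79722838 to 79741552, plus strand) had overlapping groups. Its level was 110 CPM in KO replicate 1 and 78.0 CPM in KO replicate 2, and 61.1 CPM in WT replicate 3 and 81.3 CPM in WT replicate 8. KO replicate 2 thus lay between the WT libraries. The mean was 93.8 ± 22.4 CPM in KO and 71.2 ± 14.2 CPM in WT (SD, n = 2 each). The log2 fold change of 0.40 (SE 0.25, 95% interval -0.23 to 1.02, edgeR adjusted p = 0.475) did not pass, and its interval spans 0.855-fold to 2.03-fold. The log2 fold change was 0.61 without KO replicate 2 and 0.13 without KO replicate 1.

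**Figure D2:**
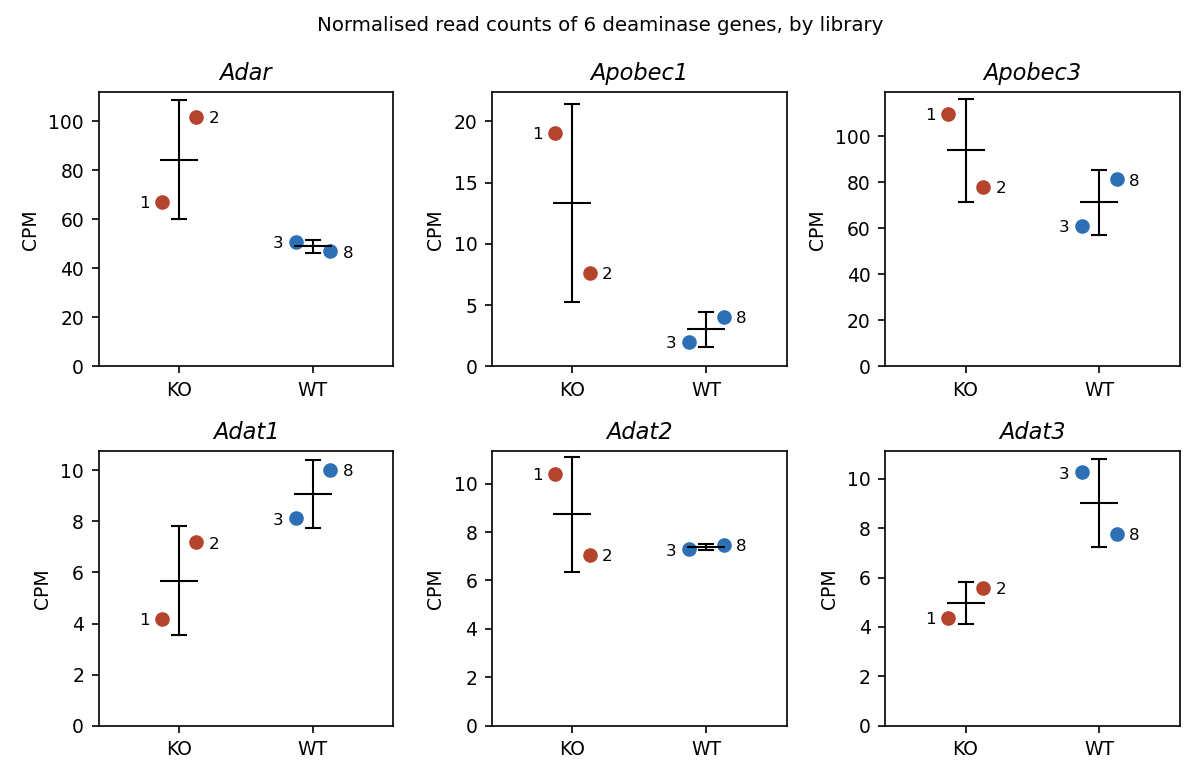
Each panel shows 1 gene in CPM of the TMM-scaled library, with a point per library labelled by its replicate number and the mean with its SD as bars (n = 2 each). The KO points lie above the WT points for Adar and Apobec1, below them for Adat1 and Adat3, and overlap them for Apobec3 and Adat2.

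The tRNA deaminase genes had lower counts than Adar and Apobec3, between 128 and 474 reads per library. Adat3 (ENSMUSG00000035370, chromosome 10, 80065625 to 80070399, plus strand) had 4.37 and 5.57 CPM in KO replicates 1 and 2, against 10.3 and 7.75 CPM in WT replicates 3 and 8. Both KO libraries lay below both WT libraries. The mean was 4.97 ± 0.849 CPM in KO and 9.01 ± 1.77 CPM in WT (SD, n = 2 each), with a log2 fold change of -0.85 (SE 0.30, 95% interval -1.60 to -0.10, edgeR adjusted p = 0.406). Adat3 starts 2 bases upstream of Scamp4, a secretory carrier membrane protein gene on the same strand. From there on the span of Adat3 lies within that of Scamp4. The 2 genes share 4773 bases of span and 68 exon bases. How reads shared by overlapping genes were counted is not stated, so the Adat3 values are uncertain, to an extent that is not known. Scamp4 had 26.2 and 33.4 CPM in the KO libraries and 41.9 and 43.0 CPM in the WT libraries, again with no overlap (log2 fold change -0.51, SE 0.21, edgeR adjusted p = 0.431).

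Adat1 (ENSMUSG00000031949, chromosome 8, 114490808 to 114516202, minus strand) had 4.18 CPM in KO replicate 1 and 7.18 CPM in KO replicate 2, and 8.12 CPM in WT replicate 3 and 10.0 CPM in WT replicate 8. The groups did not overlap, though the counting intervals of KO replicate 2 and WT replicate 3 overlap, with exact Poisson 95% limits of 6.36 to 8.08 CPM and 7.09 to 9.26 CPM. On the log2 scale the change was -0.67 (SE 0.35, 95% interval -1.54 to 0.19, edgeR adjusted p = 0.439). Adat2 (ENSMUSG00000019808, chromosome 10, 13272700 to 13283182, plus strand) had 10.4 CPM in KO replicate 1 and 7.05 CPM in KO replicate 2, against 7.29 CPM in WT replicate 3 and 7.46 CPM in WT replicate 8. Only KO replicate 1 stood apart from the other three libraries. For Adat2 the log2 fold change of KO over WT was 0.24 (SE 0.30, 95% interval -0.49 to 0.97, edgeR adjusted p = 0.679), and it turned to -0.065 without KO replicate 1. The first 249 bases of Adat2 overlap exons of Pex3, a peroxisome biogenesis gene on the opposite strand, which had 20.7 and 16.2 CPM in the KO libraries and 15.3 and 15.6 CPM in the WT libraries. Without KO replicate 2, Adat1 (log2 fold change -1.13, edgeR adjusted p = 0.0180) and Adat3 (-1.05, edgeR adjusted p = 0.0286) passed as lower, in the fit that called 15.3% of all genes as lower.

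The subunit genes of the wobble deaminase had opposite signs in the fit of all libraries. The interval of Adat2 held both signs, and its sign turned without KO replicate 1. The ratio of the counts of the subunit genes was taken within each library, where scaling cancels. The count of Adat3 divided by that of Adat2 was 0.420 and 0.790 in KO replicates 1 and 2, and 1.41 and 1.04 in WT replicates 3 and 8. The mean ratio was 0.605 ± 0.262 in KO and 1.22 ± 0.260 in WT (SD, n = 2 each). The KO ratios were both below the WT ratios, which gives p = 0.333 in a two-sided exact permutation test, the smallest that 2 against 2 libraries allow. The ratio was computed after the signs of the 2 genes had been seen.

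**Figure D3:**
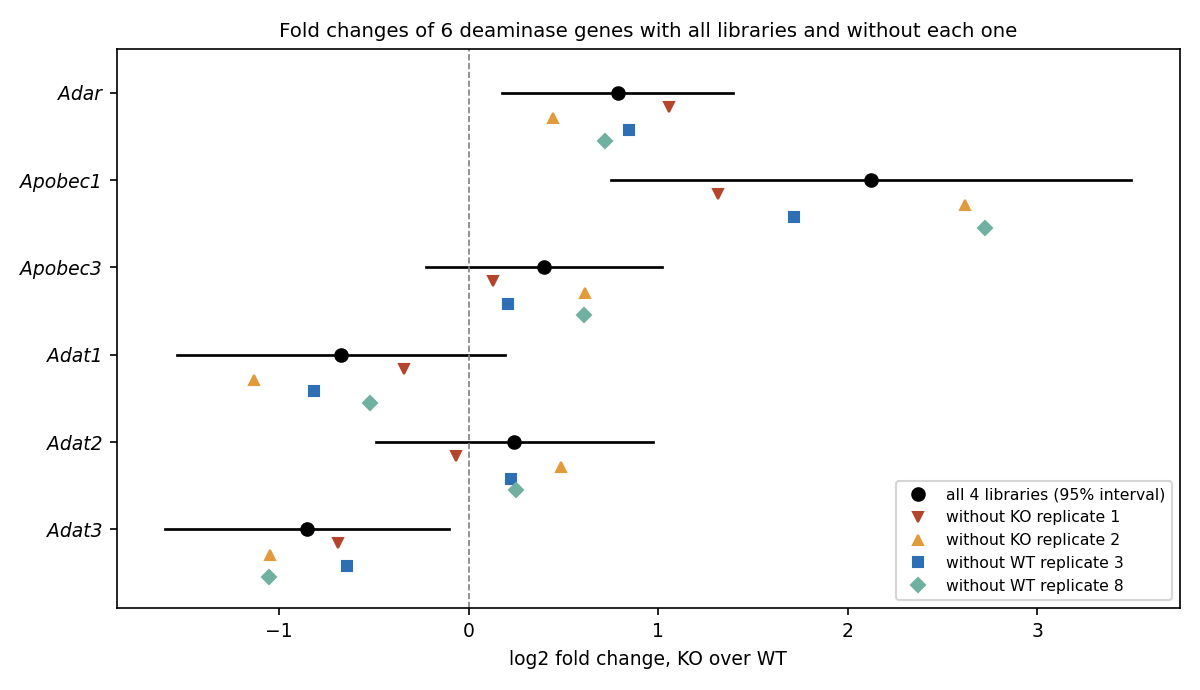
The horizontal axis is the log2 fold change of KO over WT, with the fit of all 4 libraries as a black circle with its 95% interval and the 4 fits without 1 library as coloured markers. Every marker is on the same side of 0 for each gene except Adat2, which lies at -0.065 without KO replicate 1.

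Levels were compared between genes as CPM per kb of merged annotated exons. Apobec3 was the highest in both groups, at 35.4 ± 8.46 in KO and 26.9 ± 5.38 in WT CPM per kb (SD, n = 2 each). Adar followed at 12.4 ± 3.60 in KO and 7.21 ± 0.415 in WT, and in each group both its libraries were below both libraries of Apobec3. In KO the next were Adat2 (5.95 ± 1.62), Apobec1 (5.58 ± 3.37), Adat3 (3.52 ± 0.602) and Adat1 (1.29 ± 0.483). The libraries of Adat2 and Apobec1 overlapped there, as did those of Apobec1 and Adat3. In WT the next were Adat3 (6.38 ± 1.26), Adat2 (5.03 ± 0.0819), Adat1 (2.06 ± 0.304) and Apobec1 (1.26 ± 0.610), and Adar and Adat3 overlapped. Apobec1 was thus the lowest of the 6 in WT and stood at the fourth place in KO. Apobec3 made up 58.8% and 50.8% of the summed level of the 6 genes in KO replicates 1 and 2, and 50.7% and 58.8% in WT replicates 3 and 8. Adar made up 14.0% and 25.8% in KO, and 16.5% and 13.2% in WT, so its share in KO replicate 1 lay between those of the WT libraries.

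**Figure D4:**
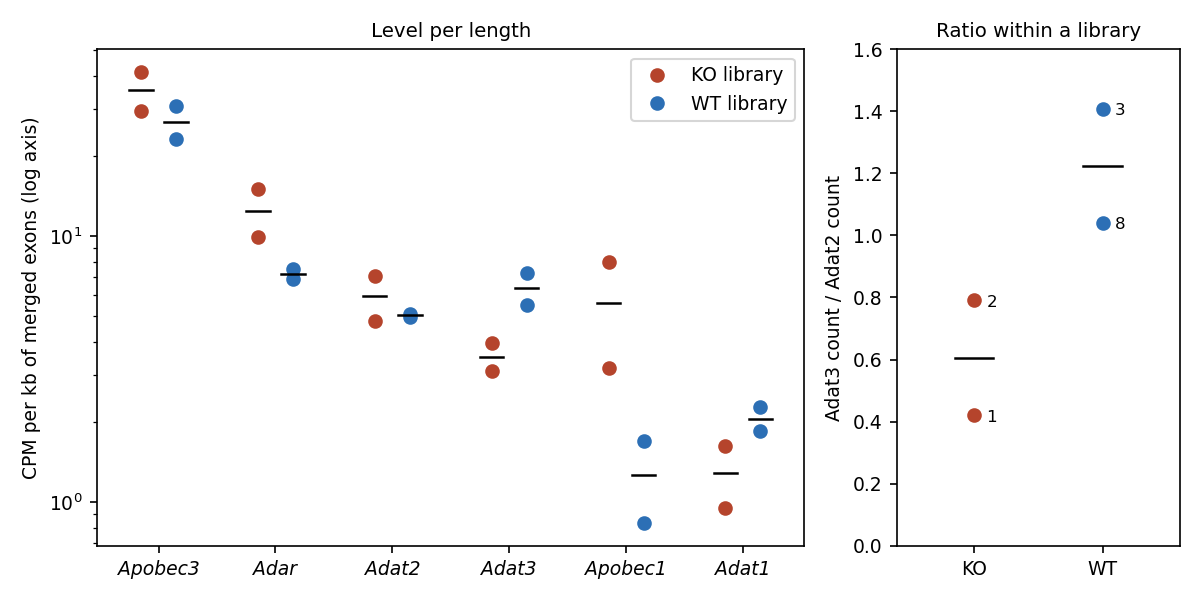
The left panel shows CPM per kb of merged exons on a log axis for each library, with bars at the group means, and the right panel shows the count of Adat3 divided by that of Adat2 within each library, labelled by replicate number. Apobec3 lies above 20 CPM per kb in every library, and the KO ratios (0.420 and 0.790) lie below the WT ratios (1.04 and 1.41).

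Over the 6 genes, edgeR's quasi-likelihood test called 0, where it called 0.103% of all 10716 genes. At an unadjusted p below 0.05 there were 3 of 6 (Adar and Apobec1 higher, Adat3 lower), against 11.9% of all genes (9.82% higher and 2.08% lower). Apobec1 was the 1 gene that DESeq2 called and the 1 that the likelihood ratio test called, and limma-voom called 0. Groups did not overlap for 4 of the 6, 2 with KO higher and 2 with KO lower, where 54.0% of all genes did not overlap, so that share is near the background. Without KO replicate 1 the count was 1 of 6 (Adar), where 1.33% of all genes were called. Without KO replicate 2 it was 4 of 6 (Adat1, Adat3, Apobec1 and Apobec3), where 32.6% were called, and it was 0 without WT replicate 3 or WT replicate 8, where 0.383% and 0.252% were called. It was also 0 without library scaling (0.812% of all genes called), with the stricter filter (0.142%), and with robust=FALSE or legacy=FALSE (0.14% each). In the authors' deposited table, whose fold changes are coded as WT minus KO and are given here with the sign turned, the log2 fold changes were 0.76 for Adar, 1.98 for Apobec1, 0.39 for Apobec3, -0.82 for Adat3, -0.71 for Adat1 and 0.20 for Adat2. The adjusted p in the authors' deposited table ran from 0.420 for Apobec1 to 0.735 for Adat2.

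The remaining enzymes that deaminate bases, nucleosides or nucleotides, with their catalytically inactive relatives, were 14 listed genes, of which 7 were in the table. None passed in edgeR's quasi-likelihood test, where 0.103% of all genes were called. Ampd2, an AMP deaminase, had the smallest p, with 1803 and 462 CPM in KO replicates 1 and 2 and 161 and 198 CPM in WT replicates 3 and 8. The log2 fold change reached 2.66 (SE 0.64, edgeR adjusted p = 0.295), a difference that KO replicate 1 led. The guanine deaminase gene Gda, named after its value was seen, was the other gene of the list at an unadjusted p below 0.05 (log2 fold change 2.47, SE 0.81, edgeR adjusted p = 0.388). It had 7.63 and 1.45 CPM in the KO libraries and 0.943 and 0.697 CPM in the WT libraries, and so is in the table only through the KO libraries. DESeq2 called 2 of the 7, where it called 3.49% of all genes, and the likelihood ratio test 1, where it called 3.26%. The count was 1 without KO replicate 1 (1.33% of all genes called) and 4 without KO replicate 2 (32.6% called). The list median was -0.06.

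Partner and regulator genes of ADAR enzymes, tRNA anticodon loop enzymes, APOBEC1 cofactors and inosine-handling genes had 0 members past the threshold in edgeR's quasi-likelihood test, in DESeq2 and in the likelihood ratio test. These called 0.103%, 3.49% and 3.26% of all genes. The 4 lists also had 0 members at an unadjusted p below 0.05 in edgeR's quasi-likelihood test, against 11.9% of all genes. Of 14 measured partners and regulators, Wwp2, a ubiquitin ligase that acts on ADAR2, had the smallest p (log2 fold change 0.47, SE 0.21, edgeR adjusted p = 0.433). It had 182 and 154 CPM in the KO libraries and 135 and 108 CPM in the WT libraries. The list median was -0.26, and 9 of the 14 genes had both KO libraries below both WT libraries, as did 26.7% of all genes. All 27 tRNA anticodon loop enzymes were measured, with a median of -0.13 and 12 with both KO libraries below both WT libraries. Ftsj1, a tRNA ribose methyltransferase, had the smallest p there, with 34.1 and 44.1 CPM in the KO libraries and 55.4 and 53.3 CPM in the WT libraries (log2 fold change -0.47, SE 0.21, edgeR adjusted p = 0.433).

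Of the 9 listed APOBEC1 cofactors 6 were in the table, and the RNA-binding complementation factor genes A1cf and Rbm47 were not. Hnrnpab, a protein that binds APOBEC1, had 250 and 480 CPM in KO replicates 1 and 2, and 588 and 639 CPM in WT replicates 3 and 8 (log2 fold change -0.75, SE 0.34, edgeR adjusted p = 0.433). Of the 12 measured inosine-handling genes, Sfpq, a paraspeckle protein gene, had 246 and 378 CPM in the KO libraries and 465 and 447 CPM in the WT libraries (log2 fold change -0.55, SE 0.27, edgeR adjusted p = 0.433). The list of double-stranded RNA binding domain proteins had 14 measured genes with a median of -0.04. Of them 0 were called in edgeR's quasi-likelihood test and in DESeq2, where 0.103% and 3.49% of all genes were called. Eif2ak2, described above, was its only member at an unadjusted p below 0.05, against 11.9% of all genes. Without KO replicate 2 the counts called in these lists were 5 of the 14 partners and regulators, 7 of the 27 anticodon loop enzymes, 2 of the 6 cofactors, 5 of the 12 inosine-handling genes and 3 of the 14 double-stranded RNA binding proteins, where 32.6% of all genes were called. Without KO replicate 1, where 1.33% of all genes were called, that of the double-stranded RNA binding proteins was 1.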

How the data were processed

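The deposited table used here holds whole-number counts of 10716 genes. Their comparison table holds the same counts with a score for each model column, among them a log2 fold change coded as WT minus KO, and p-values, per the file headers. The submitters' processing notes name the builds NCBIM37 and mm9, and the tools GATK, limma, edgeR, Cufflinks, HTSeq, BWA 0.6.2, SAMtools 0.1.19, Bowtie2 2.1.0.0, TopHat2 2.0.8 and Trimmomatic 0.30, with no role given. The deposited normalised values were not used, and CPM was recomputed from the counts with TMM scaling. Strand and the treatment of shared reads are not given in the sources used here.

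Libraries were grouped by their titles. KO was fitted against WT over all genes in edgeR 4.0.16 (R 4.3.3), with filterByExpr (0 genes removed), TMM, estimateDisp, glmQLFit (robust=TRUE, legacy=TRUE) and a two-sided F test of the quasi-likelihood fit. P-values were adjusted by Benjamini-Hochberg across the whole table, and a gene was called at an adjusted p below 0.05. There were 2 residual degrees of freedom. The SE was the absolute log2 fold change over the square root of F, and 95% intervals used the t distribution of the fit. The code of the fit was checked on counts simulated with a common dispersion for all genes. That check does not cover a library that deviates from its group. No set test was run. The common biological coefficient of variation was 25.6%, which with 2 libraries per group limits precision more than counting error does, and Poisson intervals cover counting error only. Positions and exon lengths came from GENCODE M1 on NCBIM37. Alternatives were RLE or no scaling, other filters, DESeq2 1.42.0, limma-voom (limma 3.58.1), the likelihood ratio test, robust=FALSE, legacy=FALSE and leaving out each library. The members and lists were chosen with earlier results of these data known. The genes named by rule were the members, the 5 genes most like Adar and genes that overlap a member. From each list they were the 3 called genes with the smallest p, or the 1 with the smallest p where none was called. Other genes, among them single markers and comparators, were named with their values known, which the text says for some of them only. A comparator that the text does not name is counted in its list and not reported here by itself. Tables were handled in Python 3.11.15.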

Additional observations from a re-analysis of the deposited data

How the results depend on the processing

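Of 78 fold changes of the 6 deaminase genes under 13 alternatives, 70 kept their direction and side of the threshold, 7 passed the threshold and 1 reversed, Adat2 without KO replicate 1 (-0.065). The calls gained were Apobec1 in the likelihood ratio test (2.13) and in DESeq2 (2.13), Adar without KO replicate 1, and Adat1, Adat3, Apobec1 and Apobec3 without KO replicate 2. Without each library in turn the log2 fold change ran from 0.45 to 1.06 for Adar, -1.13 to -0.34 for Adat1, -0.065 to 0.49 for Adat2, -1.05 to -0.64 for Adat3, 1.32 to 2.73 for Apobec1 and 0.13 to 0.61 for Apobec3. In such fits the lone library of a group is assumed to vary like the other group.

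The 11 genes called over the table became 349 in the likelihood ratio test, 374 in DESeq2 and 87 when library scaling was left out, and from 27 to 3492 without a library. The 0 deaminase genes called became 1 in DESeq2 (3.49% of all genes called) and 1 in the likelihood ratio test (3.26%). The comparator list includes 7 genes that are in the table only through the KO libraries. The 3 comparators called became 12 without library scaling (0.812% of all genes called) and 5 with the stricter filter (0.142%). Their number was 19 in DESeq2 (3.49%), 19 in the likelihood ratio test (3.26%), and 5 with robust=FALSE or legacy=FALSE (0.14% each). Among the other 14 deaminase family genes, DESeq2 called 2 and the likelihood ratio test 1, and the count without a library ran from 0 to 4. Counts called in fits without a library are given above, beside the share over all genes. The cause of these shifts was not tested. Per kb of the longest annotated transcript, Adar in WT was 8.28, and Adat1 was 1.80 in KO and 2.87 in WT. No paired analysis was possible because the KO replicates (1 and 2) and the WT replicates (3 and 8) share no replicate number. The lowest count behind a deaminase value was 55 reads, for Apobec1 in WT replicate 3, and its counting interval (1.50 to 2.60 CPM) does not overlap that of WT replicate 8 (3.50 to 4.67 CPM).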
